A study of Mus musculus with 8 samples.

Results

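The 10 genes of the AP-1 (activator protein 1) family and its close relatives were described by their open chromatin in resting mouse natural killer (NK) cells: Fos, Fosb, Fosl1 and Fosl2 of the Fos family, Jun, Junb and Jund of the Jun family, Batf and Batf3, and Atf3. They were chosen by name among 21883 protein-coding genes, and a peak was assigned to the gene whose nearer end lay closest to the peak midpoint, up to 50 kb away. The data were 8 ATAC-seq peak lists of NK cells from spleen, the cytotoxic innate lymphocytes, taken at steady state. ATAC-seq uses a transposase that inserts adapters into open chromatin. The MUT group was 4 mice carrying alanine in place of serines 303 and 307 of HSF1 (S303/7A; replicates 26, 27, 28 and 29). The WT group was 4 mice with wild-type HSF1 (replicates 4, 5, 6 and 7). In both groups DX5 beads enriched the splenocytes, CD49b+ CD3e- cells were sorted, and 200000 NK cells of each mouse entered the assay, so each library is 1 mouse. The labels name no strain, age or sex, nor how the mutation was introduced.

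AP-1 proteins are basic leucine zipper factors that bind DNA as dimers. Fos family proteins need a partner, usually a Jun protein, whereas Jun proteins also pair with each other. Fos, Fosb, Jun and Junb are immediate early genes that receptor signalling through MAP kinases turns on within minutes in lymphocytes, and in NK cells AP-1 takes part with NFAT and NF-kB factors in cytokine and effector gene induction. HSF1, the altered protein, is the heat shock transcription factor, and phosphorylation of the serines replaced here is known as a brake on it. The comparison asked whether chromatin near the AP-1 genes of unstimulated NK cells differed between the genotypes.

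The MUT lists held 44333 to 49627 peaks and the WT lists 42695 to 46102. Each peak had a position and the authors' own positive score, whose meaning is not given, and no read counts, so the depth of each library is unknown. Where a list has no peak, none was called there, and the chromatin may still be open. A score percentile is the rank of a peak by score within its list, in percent, and peaks of equal score share the middle of their ranks. It describes ranks within a list and was not tested between genotypes. All 10 NK cell marker genes, among them Ncr1, Eomes and Gzmb, had linked peaks in all 8 libraries, and 1 of them, Klrb1c, was lower in MUT (limma, adjusted p = 0.0315). Markers of other cells were also listed. Of 8 in each list, 5 T cell and 4 B cell markers had linked peaks in all 8 libraries. The same held for 5 myeloid and dendritic and 4 erythroid and platelet markers, so such peaks were not limited to NK cell markers. Of 8 B cell markers, 6 had a value, with a median log2 difference of 0.48 and a summed length of 2972 to 4284 bp in MUT and 2453 to 3045 bp in WT, while Cd79a and Ms4a1 had none. Of 8 T cell markers, 5 had a value (7539 to 8997 bp in MUT and 6881 to 7743 bp in WT), while Cd4, Cd8a and Cd8b1 had none. Of 8 myeloid and dendritic markers, 6 had a value (8898 to 10473 bp in MUT and 8350 to 9997 bp in WT), while Lyz2 and S100a8 had none. Of 8 erythroid and platelet markers, 5 had a value (2802 to 3491 bp in MUT and 2961 to 3548 bp in WT), while Hba-a1, Hbb-bs and Gp9 had none. The part of other cells in the results for the AP-1 genes was not tested. In these bulk libraries, fewer cells with an open region and less opening per cell cannot be told apart.

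Each of the 10 AP-1 genes had linked peaks in all 8 libraries, and no difference between MUT and WT in their linked peak length passed the test. The 10 genes had 62 open regions (peaks of any library that overlapped by at least 1 bp, merged). Of these, 58 had a peak in at least 2 libraries and were tested, and 4 were called in 1 library. A total of 44 of the 58 regions (75.9%) were called in all 8 libraries, beside 68.9% of all 50044 such regions of the genome. By position, 20 regions lay within 1 kb of an end of their gene, 4 in the gene body and 34 outside. Fos had 11 tested regions, Fosb 9, Fosl2 7, Jun, Junb and Atf3 6 each, Batf3 5, Jund and Batf 3 each, and Fosl1 2.

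**Figure D1:**
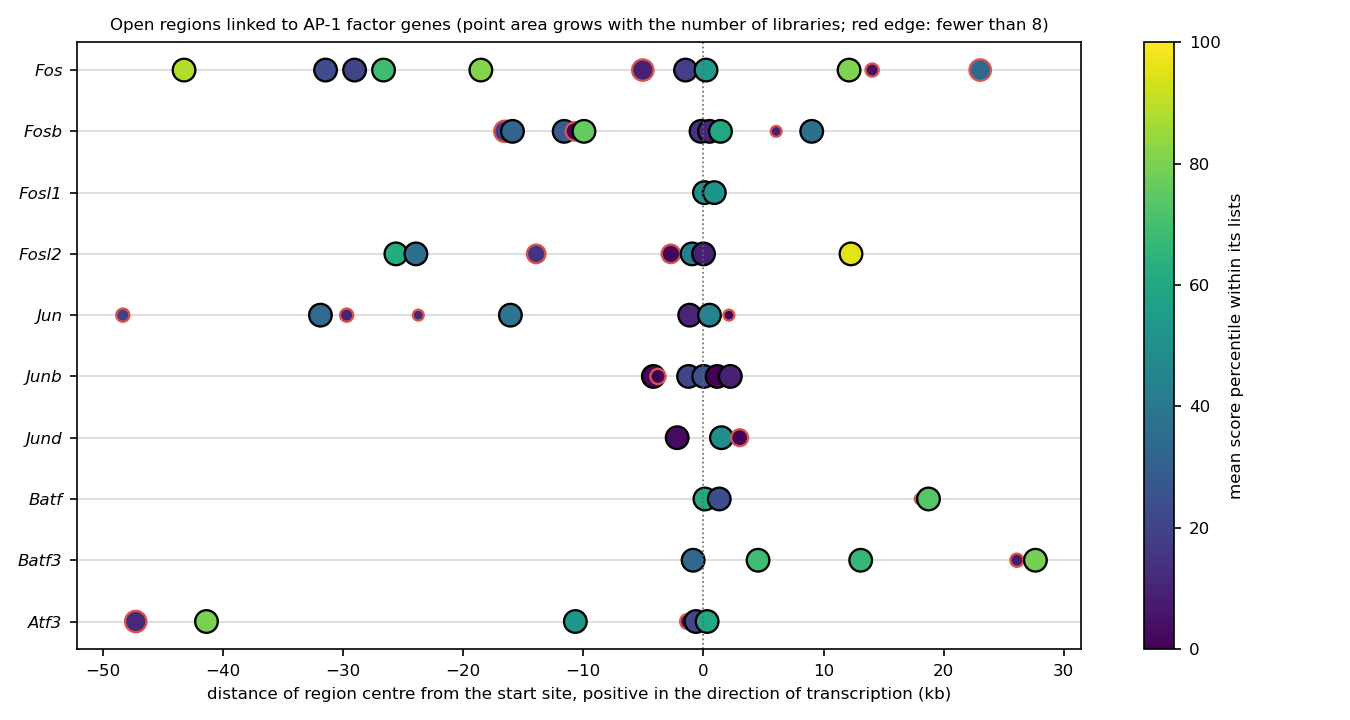
Position of all 62 regions linked to the AP-1 genes, as the distance of the region centre from the listed start (kb, horizontal axis, 1 row per gene; for Fosl1 the strand was not given and the lower coordinate end is used). Point colour is the mean score percentile within the lists, point area grows with the number of libraries, and a red edge marks fewer than 8 libraries. The highest percentiles lie away from the start sites, at 12.3 kb in Fosl2 and -43.2 kb in Fos.

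The promoters of Fos, Fosb, Jun and Junb are shown because a peak overlapped each of them in 8 of 8 libraries and because these are the classical immediate early genes of the family. Each window runs from 250 bases before to 50 bases after the start listed by RefSeq (GRCm38.p6, the mm10 build), 5′ to 3′ on the strand of the gene. The windows are chr12:85473640-85473939 (+) for Fos, chr7:19309996-19310295 (-) for Fosb, chr4:95052173-95052472 (-) for Jun and chr8:84978699-84978998 (-) for Junb. Capitals mark letter matches to TGACG, the shared core of cyclic AMP response elements, to TGACATCA, the variant AP-1 element known from the Jun promoter, and to TATAAA, a core promoter element.
Fos: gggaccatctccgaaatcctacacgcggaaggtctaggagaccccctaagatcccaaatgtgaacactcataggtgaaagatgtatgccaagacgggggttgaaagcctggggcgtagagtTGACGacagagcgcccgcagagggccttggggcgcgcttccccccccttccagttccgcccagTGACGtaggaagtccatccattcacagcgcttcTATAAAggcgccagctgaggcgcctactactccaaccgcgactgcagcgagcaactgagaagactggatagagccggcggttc
Fosb: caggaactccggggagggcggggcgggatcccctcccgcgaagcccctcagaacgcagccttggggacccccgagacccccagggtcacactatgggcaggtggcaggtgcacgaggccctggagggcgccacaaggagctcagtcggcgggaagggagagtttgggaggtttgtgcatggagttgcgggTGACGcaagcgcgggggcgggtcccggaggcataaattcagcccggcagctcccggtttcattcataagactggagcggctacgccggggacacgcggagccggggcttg
Jun: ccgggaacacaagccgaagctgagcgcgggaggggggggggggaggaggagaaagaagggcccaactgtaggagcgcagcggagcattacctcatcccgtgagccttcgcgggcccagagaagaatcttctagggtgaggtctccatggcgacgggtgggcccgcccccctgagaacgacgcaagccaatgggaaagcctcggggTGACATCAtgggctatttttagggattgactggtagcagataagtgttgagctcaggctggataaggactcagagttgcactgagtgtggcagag
Junb: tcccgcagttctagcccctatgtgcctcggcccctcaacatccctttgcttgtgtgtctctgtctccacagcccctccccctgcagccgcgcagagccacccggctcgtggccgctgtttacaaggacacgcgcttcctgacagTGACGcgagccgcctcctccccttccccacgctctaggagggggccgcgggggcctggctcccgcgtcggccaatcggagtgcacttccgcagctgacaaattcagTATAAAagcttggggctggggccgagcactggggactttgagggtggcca

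Of the 10 genes, 9 matched a promoter window, and Fosl1 did not. No window of the 9 held the full TPA response element TGACTCA (4.66% of 21262 promoter windows of protein-coding genes held it), the full cyclic AMP response element TGACGTCA (2.23%) or the heat shock element (0.513%), with both strands searched. TGACG, which is also contained in TGACGTCA, was found in 5 of the 9 windows, against 23.6% of all windows. Its first base lay at -129 and -66 from the start of Fos, at -60 in Fosb, at -106 in Junb, at -98 in Batf, and at -7 in Atf3, there on the other strand. TGACATCA was found in the Jun window at -45 (3.66% of all windows), and TATAAA in Fos at -33 and in Junb at 0, the listed start itself (12.6% of all windows). These 3 shorter or variant motifs were searched after the letters had been read. A match is a run of letters and not evidence of binding, and a window without one says nothing about the factor.

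Peaks covered all 300 bases of the Fos, Jun, Junb, Batf and Atf3 windows in all 8 libraries. The Fosl2 window was covered over 207 to 234 bases. The Fosb window was covered over 58, 233, 191 and 200 bases in MUT (replicates 26, 27, 28 and 29) and over 300, 300, 300 and 245 bases in WT (replicates 4, 5, 6 and 7). The region over it was called as 2 peaks in MUT replicates 27, 28 and 29 and in WT replicate 7. All MUT values of Fosb lay below all WT values, which held for 1.11% of the 10045 windows with a peak in all 8 libraries, and the reverse for 0.289%. Coverage cannot exceed 300 bases, so windows covered in full in every library, such as that of Fos, cannot show either order. They are among the 10045, and the share among windows able to differ was not counted. The Jund and Batf3 windows had no peak in any library, as was the case for 47.7% of all windows. Each window rests on 1 listed start, and the strongest Jund region, at 70698298 to 70700180 on chromosome 8, began past the end of its window.

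The gene ends of the AP-1 family ranked low by score among the gene ends of the genome. The 20 gene-end regions had a median score percentile of 29.5, against 68.5 over all 13258 gene-end regions, and all 20 lay below that genome median. The highest of them, at the start of Batf, reached 60.7, and 42.1% of all gene-end regions were lower. None of the 20 reached percentile 75, which 41.4% of all gene-end regions did. Outside gene ends the values were closer. The 38 other regions had a median of 29.97 against 37.1 over 36786 such regions, and 7 of the 38 reached percentile 75, against 15.4% of all. The mean peak length at the members' gene ends had a median of 606 bp, against 675 bp over all gene ends.

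**Figure D2:**
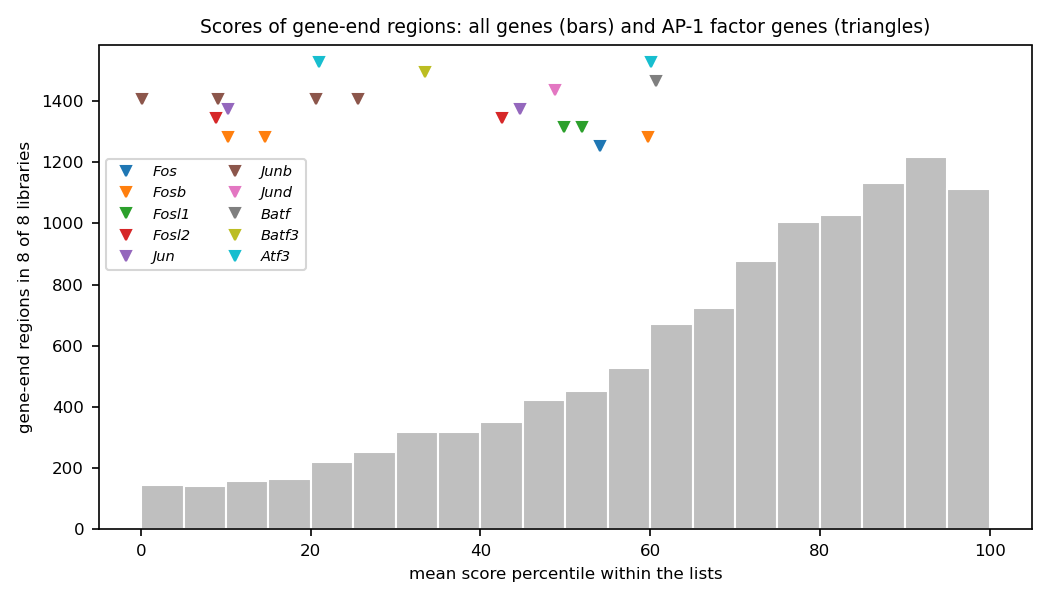
Number of gene-end regions called in 8 of 8 libraries (vertical axis) by mean score percentile (horizontal axis); bars are all 11225 such regions and triangles the 19 regions of the AP-1 genes, whose height only separates the genes. The triangles spread from near 0 to 60.7, while the bars are tallest above 75.

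The promoter windows were then set against all windows. The percentiles of the 7 AP-1 windows are those of the start-site regions counted above, so they are not a second observation. Over windows with a peak in all 8 libraries, the median percentile was 44.7 for the 7 AP-1 genes and 79.1 for all 10045. Batf (60.7), Atf3 (60.1) and Fos (54.1) were the highest of the 7, with 21.6%, 21.0% and 16.03% of all windows below them. Jun followed at 44.7 and Junb at 25.6, with 10.1% and 3.17% of windows below them. Fosb at 14.6 and Fosl2 at 8.84 were the lowest, with 1.36% and 0.637% of windows below them. Windows of a list of EGR, NR4A and other genes, such as Ier2, Klf2 and Myc, had a median of 55.0 (12 windows). The median was 64.4 for the activators of AP-1 genes and their DNA-binding partners (19 windows). It was 63.2 for other basic leucine zipper genes (24 windows) and 78.2 for the MAP kinase genes (21 windows). GC content of the 9 windows ranged from 46.7% in Jund to 75.7% in Batf3, with a median of 64.7% against 56.3% over all windows. Across the 10045 windows, GC content and percentile had a Spearman rho of -0.088, and windows with at least 65% GC still had a median percentile of 76.6. Across all 11225 gene-end regions called in 8 libraries, peak length and percentile had a rho of 0.353. These relations are across genes of the same libraries and are descriptions. The part of GC content and peak length in the low ranks was not tested further.

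In 6 of the 10 genes the region of highest mean percentile was not at a gene end. Of the 9 genes with both kinds of region, the gene end was the highest in 3, whereas it was the highest in 56.8% of the 6410 genes of the genome that had both kinds. The 9 genes had more tested regions than 61.2% (Jund and Batf) to 97.1% (Fos) of genes. The 56.8% was not matched for the number of regions, and the part of that number was not tested.

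Across genotypes, none of the 10 genes passed the test on linked peak length (limma on log2 of the scaled length + 200 bp, adjusted over 14257 genes, threshold 0.05), where 96 genes (0.673%) did, 0.442% higher and 0.231% lower in MUT. That number fell to between 22 (without WT replicate 5) and 79 (without MUT replicate 29) with 1 library left out. At an unadjusted p under 0.05 there were 3 of the 10, Fosb, Jund and Batf3, beside 11.2% of all genes. The median log2 difference, MUT minus WT, was 0.025 over the 10 genes and -0.019 over all genes, and 7 of the 10 were above 0. Each 95% interval holds for this 1 setting and for 1 gene at a time. The widest 95% bound of the 10 reached a log2 difference of -0.28, in Fosb. Other settings gave values beyond it. Among them were -1.63 for Jund and -0.72 for Fosl1 in the upper 50% of each list (limma, adjusted p = 0.689 and 0.788). With equal numbers of peaks from each list, Junb was at -0.59 (limma, adjusted p = 0.0299). No region passed either: 0 of 58 at an adjusted p under 0.05, where 0.915% of all regions did, and 10 of 58 at an unadjusted p under 0.05, where 10.5% did. Of those 10, 4 were higher and 6 lower in MUT (5.37% and 5.16% of all regions). No region was MUT-only (4 MUT and 0 WT libraries; 0.583% of all) or WT-only (0.178% of all). Fisher's exact test on calling had a smallest p of 0.0286 with 4 against 4 libraries and could not pass after adjustment.

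**Figure D3:**
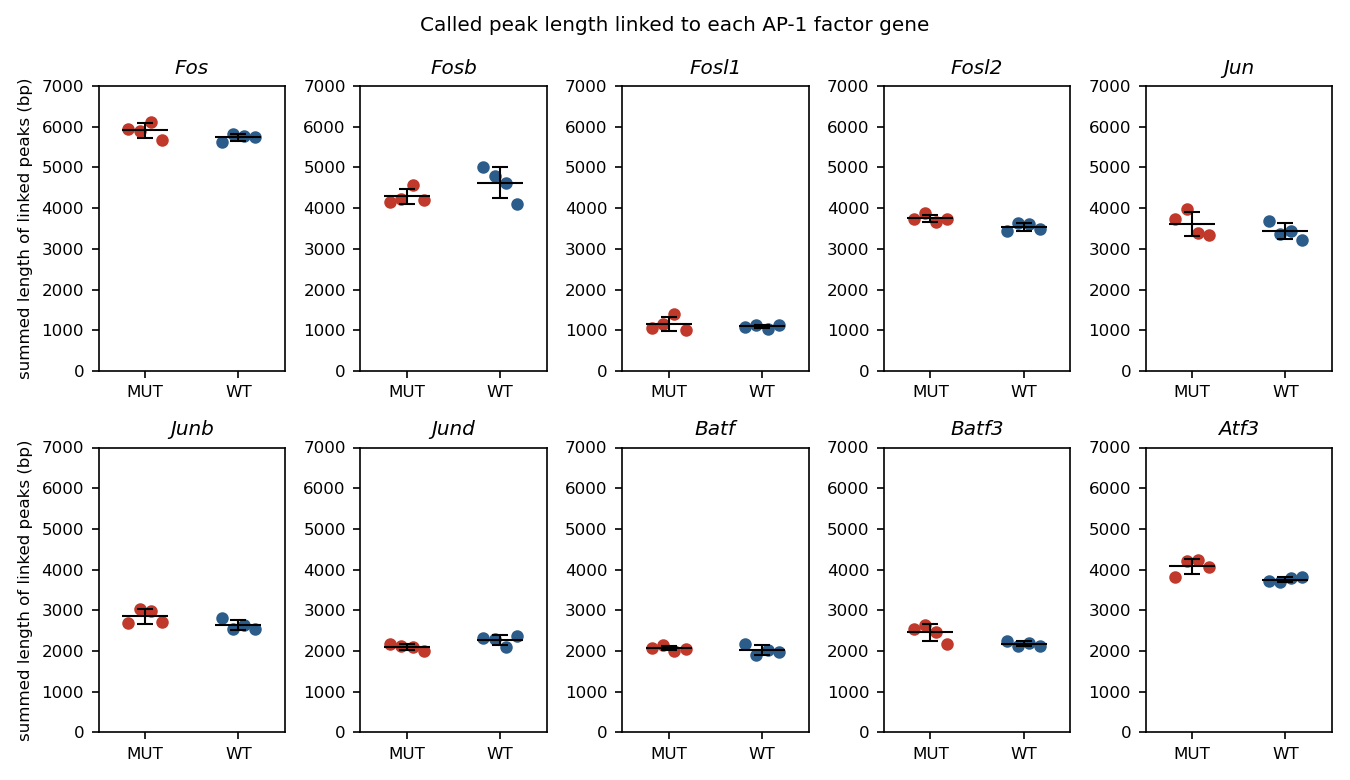
Summed length of linked peaks (bp, unscaled, vertical axis) for each AP-1 gene in the 4 MUT and 4 WT libraries; points are libraries, lines the mean and whiskers 1 SD. Fos holds the most (5624 to 6120 bp) and Fosl1 the least, and the genotypes overlap in 9 genes, all but Fosl2.

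**Figure D4:**
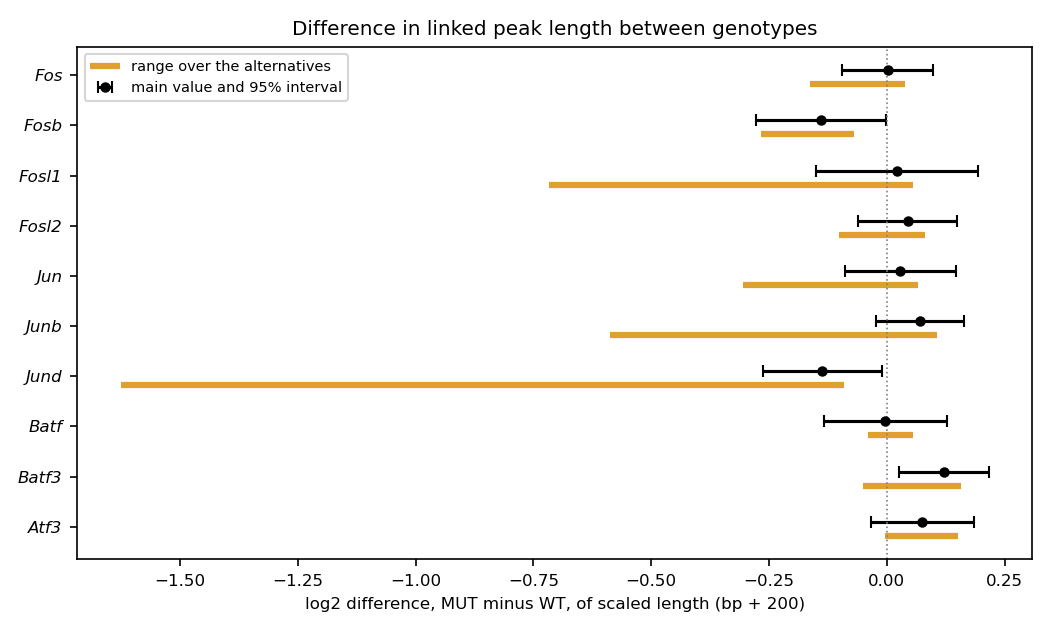
Log2 difference in scaled linked length, MUT minus WT, per gene (horizontal axis): black points with 95% intervals from limma, and orange bars for the range over the alternative settings. The intervals of Fosb, Jund and Batf3 lie on one side of 0, and the orange bars of 8 genes cross 0.

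Fos, the founding member whose protein pairs with Jun proteins, held the longest open chromatin of the family. It lies on chromosome 12 at 85473890 to 85477274 on the plus strand. Linked length was 5943, 5900, 6120 and 5669 bp in MUT and 5624, 5815, 5781 and 5745 bp in WT, more than in 98.7% of genes. The libraries of the genotypes overlapped, and the log2 difference was 0.0014 ± 0.042 (SE; 95% interval -0.095 to 0.098; limma, adjusted p = 0.994). The sequence nearer to Fos than to any other gene end, within 50 kb, was 102971 bp long. Per kb of it, 56.6 bp were open, against 347 bp per kb for Junb, where such sequence was only 7902 bp long. Gene ends made up 22.9% of the Fos length. The highest-ranked region lay at -43.2 kb (85430367 to 85430922), at percentiles 88.8, 92.8, 93.6 and 89.4 in MUT and 86.1, 87.4, 86.4 and 82.9 in WT. Regions at -18.5 kb, 12.1 kb and -26.6 kb had mean percentiles of 81.3, 80.5 and 68.4, all above the start-site region at 54.1. The start-site region was 1331 ± 45.7 bp in MUT and 1340 ± 48.7 bp in WT (SD, n = 4 each). The Fos region with the lowest p was the one at 12.1 kb (85485676 to 85486356), 606 ± 27.1 bp in MUT and 656 ± 26.5 bp in WT, with a log2 difference of -0.12 ± 0.041 (SE; limma, adjusted p = 0.354).

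Fosb encodes a Fos family protein of the immediate early response and lies on chromosome 7 at 19302696 to 19310118 on the minus strand. Its linked length was 4154, 4219, 4572 and 4207 bp in MUT and 4999, 4780, 4622 and 4099 bp in WT. Of the 4 WT libraries, 3 lay above all MUT libraries and replicate 7 lay below them all. The log2 difference was -0.14 ± 0.060 (SE; limma, unadjusted p = 0.048, adjusted p = 0.440). The lower values came from more than 1 region. The start-site region, which overlaps the promoter shown above (19309928 to 19310565), was 328, 558, 511 and 497 bp in MUT and 638, 635, 606 and 521 bp in WT (log2 difference -0.29; limma, adjusted p = 0.354). Its percentiles were 12.1, 11.9, 8.03 and 8.22 in MUT and 17.8, 26.0, 15.3 and 17.1 in WT, without overlap. Such an order, MUT below WT, was found in 10% of the 11225 gene-end regions called in all 8 libraries. It was called as 1, 2, 2 and 2 peaks in MUT and as 1, 1, 1 and 2 in WT. Bases between split peaks are not counted in the length of a region, and the part of such splits was not tested. A gene-end region at 0.5 kb had the opposite order (2.61% of such regions), with percentiles of 15.3, 11.2, 10.3 and 18.03 in MUT and 2.66, 8.84, 8.74 and 6.41 in WT. The lowest p in Fosb was at 9.0 kb, past the 3′ end (19300666 to 19301392), with 512, 528, 587 and 488 bp in MUT and 709, 716, 708 and 522 bp in WT. WT replicate 7 stood apart from the other WT libraries there. The region was called as 2 peaks in each MUT library and as 1, 1, 1 and 2 peaks in WT. The log2 difference was -0.27 ± 0.073 (SE; limma, adjusted p = 0.251), and without WT replicate 7 it was -0.35 with an adjusted p of 0.0171. With 522 bp, replicate 7 was the WT library within the MUT range. Without it the split is complete by construction, and this p supports nothing. Leaving out any other library gave an adjusted p of 0.291 to 0.473 (limma). The highest-ranked gene-end region of Fosb lay at 1.4 kb (mean percentile 59.7), and the highest-ranked region of all at -9.9 kb (19319603 to 19320382; 76.0).

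Fosl1 (FRA-1) and Fosl2 (FRA-2) encode Fos-related antigens. Fosl1, on chromosome 19 at 5447698 to 5455938, had the shortest linked length of the family, 74.2 bp per kb of sequence nearest to it. Its length was 1063, 1153, 1389 and 1000 bp in MUT and 1077, 1130, 1038 and 1128 bp in WT, and 56.1% of genes had less. The log2 difference was 0.022 ± 0.075 (SE; limma, adjusted p = 0.938). It lay in 2 neighbouring gene-end regions, 5447433 to 5448133 and 5448193 to 5449020, with mean percentiles of 49.8 and 51.9, and the first had the lower p (log2 difference -0.05; limma, adjusted p = 0.621).

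Fosl2, on chromosome 5 at 32136472 to 32157840 on the plus strand, had 3733, 3871, 3666 and 3743 bp in MUT and 3436, 3630, 3605 and 3476 bp in WT. All MUT libraries lay above all WT libraries, as they or their reverse did in 5.74% of genes, but after scaling to the total linked length they overlapped. The log2 difference of the scaled lengths was 0.044 ± 0.046 (SE; limma, adjusted p = 0.781). Fosl2 held the highest-ranked region of the family, 12.3 kb into the gene body (32148294 to 32149223), at percentiles 97.6, 96.6, 94.3 and 95.5 in MUT and 96.4, 92.5, 96.6 and 93.8 in WT. Its own start site ranked near the bottom. The start-site region (32136288 to 32136671) was 333, 299, 320 and 312 bp in MUT and 384, 362, 366 and 336 bp in WT. All MUT values were below all WT values, as in 1.73% of all regions (log2 difference -0.15; limma, adjusted p = 0.362). The highest gene-end percentile of Fosl2, 42.5, was at -0.9 kb. A region at -2.7 kb (32133635 to 32133886) was called in 4 MUT libraries and 1 WT library, at a mean percentile of 1.07, with 223 ± 15.5 bp in MUT and 54.3 ± 108 bp in WT (SD, n = 4 each). Its log2 difference was 0.79 ± 0.26 (SE; limma, adjusted p = 0.346), a size that depends on the 200 bp added before the log (1.81 with 50 bp and 0.21 with 1000 bp). Without WT replicate 7 it was 1.06 with an adjusted p of 0.0216, but that was the 1 WT library with a peak, so all WT values are then 0 by construction and this p supports nothing.

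Jun encodes c-Jun, the partner that forms the most studied AP-1 dimer with Fos, and lies on chromosome 4 at 95049036 to 95052222 on the minus strand. It had 3727, 3966, 3378 and 3342 bp in MUT and 3695, 3356, 3444 and 3222 bp in WT. The genotypes overlapped (log2 difference 0.029 ± 0.051 SE; limma, adjusted p = 0.873). Most of this length, 76.1%, lay at the gene ends, chiefly in a single wide region over the start site and the gene (95050484 to 95052950) at a mean percentile of 44.7. That region was 2274, 2436, 2316 and 2165 bp in MUT and 2466, 2423, 2412 and 2443 bp in WT, and MUT replicate 27 lay within the WT range. It was called as 2, 1, 2 and 3 peaks in MUT and as 1 peak in each WT library. It had the lowest p of the Jun regions (log2 difference -0.12 ± 0.044 SE; limma, adjusted p = 0.356). Beside it, the region at -1.1 kb was longer in all MUT than in all WT libraries, 321 ± 8.22 bp in MUT and 295 ± 7.83 bp in WT (SD, n = 4 each), a pattern found in 4.19% of all regions. Its percentiles were 10.9, 11.5, 10.0 and 17.4 in MUT and 7.85, 8.58, 8.09 and 7.24 in WT. Beyond gene ends, the region at -16.1 kb had the highest mean percentile, 38.7. Regions at -48.3 and -29.7 kb were called in 2 MUT libraries each and in no WT library.

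Junb, whose protein can replace or oppose c-Jun depending on the gene, is on chromosome 8 at 84976909 to 84978748 on the minus strand. It had 2691, 3041, 2977 and 2710 bp in MUT and 2812, 2551, 2636 and 2537 bp in WT. All MUT libraries lay above 3 WT libraries and WT replicate 4 fell among them (log2 difference 0.071 ± 0.041 SE; limma, adjusted p = 0.587). With equal numbers of peaks taken from each list the direction turned and the gene passed (log2 difference -0.59; limma, adjusted p = 0.0299). Junb had the most open bp per kb of the sequence nearest to it, 347 bp per kb over 7902 bp. That sequence was the shortest of the family, and 86.6% of the linked length lay at the gene ends. The density therefore also depends on how close the neighbouring genes lie. Nearly all of the open sequence of Junb ranked low. The highest-ranked region, at the start site (84978405 to 84979043, overlapping the promoter shown above), was at percentiles 18.8, 26.1, 17.1 and 22.1 in MUT and 28.7, 34.1, 25.1 and 33.1 in WT. A region at 1.1 kb (84977303 to 84977908) was called in 8 of 8 libraries with 571, 581, 429 and 287 bp in MUT and 603, 397, 437 and 396 bp in WT, yet its percentiles ran from 0.0102 to 0.161. No other of the 11225 gene-end regions called in all libraries had a lower mean percentile. The region at the 3′ end (84976177 to 84976839) had the lowest p of all 58, with 537, 616, 599 and 520 bp in MUT and 653, 641, 609 and 597 bp in WT. All MUT libraries but replicates 27 and 28 lay below the WT range. The region was called as 2, 1, 1 and 2 peaks in MUT and as 1 peak in each WT library. Its log2 difference was -0.14 ± 0.031 (SE; limma, unadjusted p = 0.0019, adjusted p = 0.148), and its percentiles were 4.16, 6.29, 5.60 and 3.25 in MUT and 14.8, 16.3, 11.1 and 11.3 in WT. With equal numbers of peaks it also passed, since all of its MUT peaks were then dropped (log2 difference -2.05; limma, adjusted p = 1.81e-05). The region at -4.2 kb was 284 ± 18.8 bp in MUT and 245 ± 15.7 bp in WT (SD, n = 4 each), without overlap, an order found in 4.19% of all regions. At -3.8 kb (84982374 to 84982693) a peak was called in 3 MUT libraries and no WT library, at a mean percentile of 0.00178 (log2 difference 0.92; limma, adjusted p = 0.353). The number of linked peaks was 6, 6, 6 and 7 in MUT and 5 in each WT library, and such an order without overlap was found in 1.19% of genes.

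Jund, the Jun family member known for steady expression in unstimulated cells, lies on chromosome 8 at 70697739 to 70700616 on the plus strand. It had 2178, 2124, 2109 and 1994 bp in MUT and 2323, 2300, 2095 and 2361 bp in WT. Of the WT libraries, 3 lay above all MUT libraries and replicate 6 lay among them (log2 difference -0.14 ± 0.055 SE; 95% interval -0.26 to -0.011; limma, unadjusted p = 0.037, adjusted p = 0.395). Most of the length, 85.9%, was at the gene ends, in 2 regions. The larger, at a mean percentile of 48.7, was 1736 ± 159 bp in MUT and 1786 ± 58.5 bp in WT (SD, n = 4 each). Its percentiles were 45.9, 49.5, 45.3 and 46.9 in MUT and 50.5, 49.97, 49.7 and 52.2 in WT. The lowest p was at 3.0 kb (70700615 to 70700895), where a peak was called in 1 MUT and 3 WT libraries (log2 difference -0.60, and -1.31 with 50 bp or -0.16 with 1000 bp added before the log; limma, adjusted p = 0.585). Beyond gene ends, Jund had a single region at -2.2 kb, at a mean percentile of 3.08.

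Batf encodes a small factor that pairs with Jun proteins and binds with IRF4 or IRF8 at composite elements in lymphocytes. It is on chromosome 12 at 85686720 to 85709087 on the plus strand, and Jdp2, another basic leucine zipper gene, lies between it and Fos. It had 2086, 2142, 2006 and 2050 bp in MUT and 2183, 1890, 2028 and 1987 bp in WT, with overlap (log2 difference -0.0031 ± 0.057 SE; limma, adjusted p = 0.992). Its start-site region had the highest mean percentile of all gene ends in the family, 60.7. Within the gene, a region at 18.7 kb (85704987 to 85705936) ranked higher, at 73.2. That region was 926, 906, 863 and 890 bp in MUT and 821, 793, 859 and 818 bp in WT. All MUT values exceeded all WT values, as in 4.19% of all regions, with a log2 difference of 0.06 (limma, adjusted p = 0.623).

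Batf3, known for its need in one subset of dendritic cells, lies on chromosome 1 at 191098414 to 191108943 on the plus strand. It had 2545, 2644, 2470 and 2176 bp in MUT and 2244, 2135, 2208 and 2130 bp in WT. After scaling, all MUT libraries lay above all WT libraries, the single gene of the 10 for which this held, beside 6.75% of all genes in either direction. The log2 difference was 0.12 ± 0.042 (SE; 95% interval 0.026 to 0.22; limma, unadjusted p = 0.019, adjusted p = 0.318). A region at -0.9 kb (191097110 to 191098001) gave the lowest p, with 540, 831, 456 and 453 bp in MUT and 430, 335, 331 and 299 bp in WT, again without overlap (4.19% of all regions). Its log2 difference was 0.44 ± 0.13 (SE; limma, adjusted p = 0.292). It was also the one gene-end region of Batf3, at a mean percentile of 33.5. Most of the Batf3 length lay elsewhere, and the highest-ranked region, at 27.6 kb (191125779 to 191126334), had percentiles of 73.2, 88.3, 87.7 and 75.9 in MUT and 75.6, 74.3, 89.3 and 67.7 in WT.

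Atf3 encodes a stress-induced factor that acts in the integrated stress response, and lies on chromosome 1 at 191170296 to 191183333 on the minus strand, close to Batf3 with Fam71a between them. It had 3823, 4201, 4228 and 4068 bp in MUT and 3722, 3687, 3793 and 3823 bp in WT. MUT replicate 26 and WT replicate 7 were equal and all other MUT libraries lay above all WT libraries. The log2 difference was 0.075 ± 0.048 (SE; limma, adjusted p = 0.620). Its start-site region had a mean percentile of 60.1 and was 1356 ± 60.1 bp in MUT and 1311 ± 104 bp in WT (SD, n = 4 each). The highest-ranked region was at -41.4 kb (191224058 to 191225363; 79.8). A weak region at -1.3 kb (191184463 to 191184822) was called in 3 MUT libraries, with 0, 217, 262 and 289 bp in MUT and 0 bp in all WT libraries. Its mean percentile was 2.50, and its log2 difference 0.88 ± 0.30 (SE; limma, adjusted p = 0.354). With 0 bp in WT the size is set by the 200 bp added before the log, and it was 1.93 with 50 bp and 0.24 with 1000 bp added. Without MUT replicate 26 it was 1.17 with an adjusted p of 0.0453, but that was the 1 MUT library without a peak, so the split is then complete by construction and this p supports nothing.

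**Figure D5:**
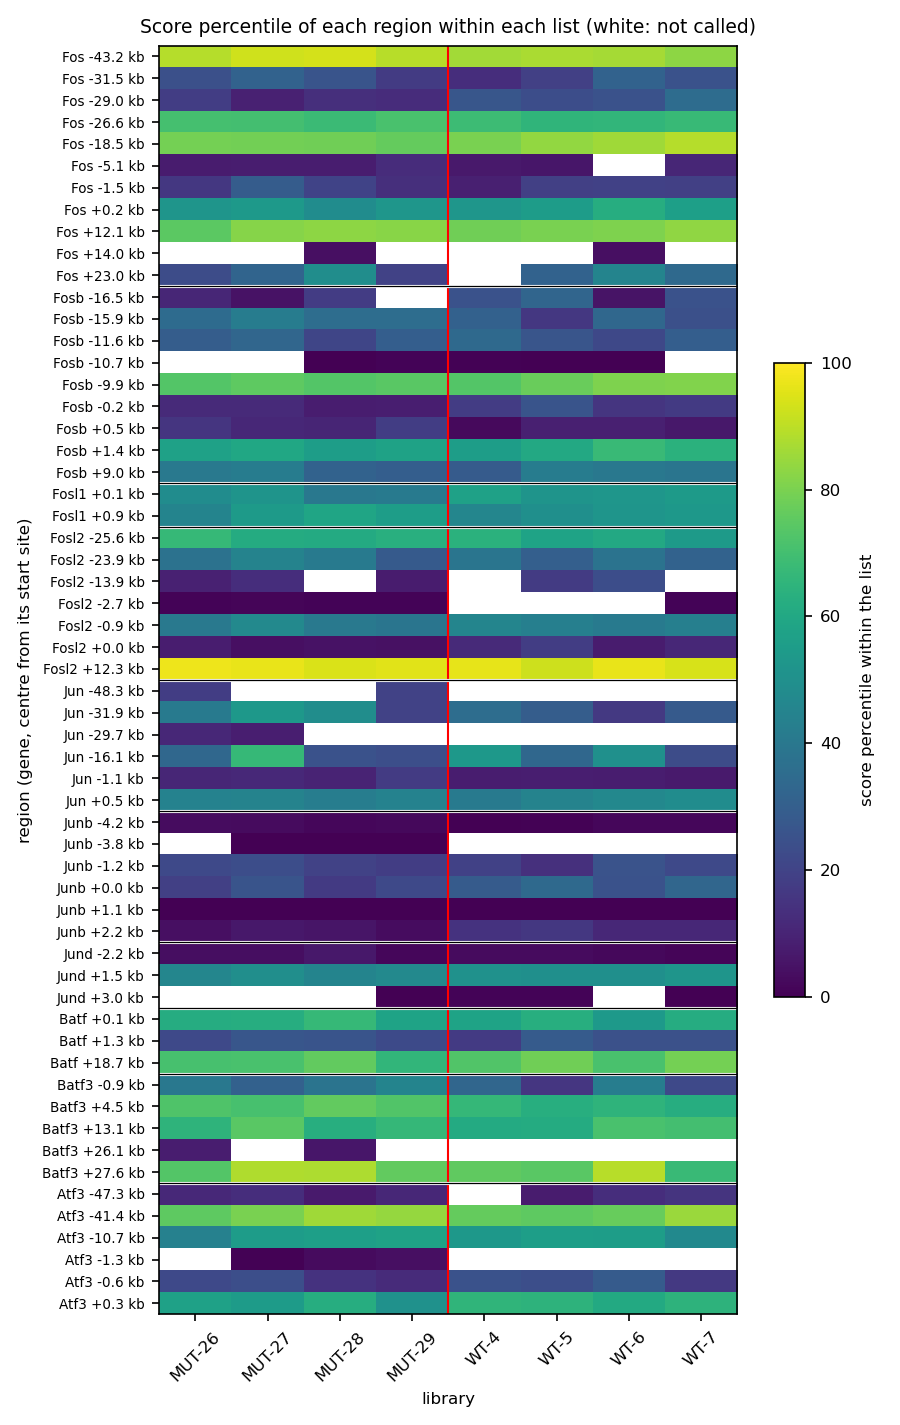
Score percentile (colour, 0 to 100) of the 58 tested regions of the AP-1 genes, 1 row per region named by gene and distance from the listed start (kb), in each of the 4 MUT and 4 WT libraries (columns, split by the red line; white means not called). High rows such as 12.3 kb in Fosl2 are high in all 8 libraries, and white cells lie mostly in rows of low percentile.

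Counted over the family, 10 of the 58 tested regions (17.2%) were called in more MUT than WT libraries, beside 14.9% of all regions, and 3 (5.17%) in more WT than MUT libraries, beside 9.97%. Unscaled peak length was above all WT libraries in all MUT libraries in 4 of the 58, beside 4.19% of all regions. It was below in 1, beside 1.73%. The 10 genes held 57, 58, 59 and 63 linked peaks in MUT and 51, 52, 52 and 53 in WT, without overlap. The regions with any peak numbered 53, 54, 54 and 55 in MUT and 50, 51, 50 and 50 in WT, and those with 2 or more peaks of the same library 4, 4, 5 and 7 in MUT and 1, 1, 2 and 3 in WT. Relative to list size the ranges of linked peaks overlapped, since MUT replicate 27, with the longest list, had fewer linked peaks per deposited peak than WT replicate 7. The 2 counts of regions were not set against list size. None of these counts was made for other sets of genes, so how often such an order arises is not known here. Summed length was 31943, 33261, 32915 and 30959 bp in MUT and 32115, 31274, 31250 and 30508 bp in WT, also with overlap. The longest list was a MUT list and the shortest a WT list, and the part of list length in these counts was not tested. At gene ends called in all libraries the mean percentile was lower in MUT in 13 of 19 regions (68.4%), near the share over all 11225 (67.2%). The median difference was -3.68 points, beside -1.20 over all. The MUT percentiles lay below all WT percentiles in 3 of the 19 (10% of all), in Fosb, Junb and Jund, and above them in 2 (2.61% of all), in Fosb and Jun.

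Genes upstream of AP-1 and beside it gave no call. Of 26 MAP kinase cascade and phosphatase genes with a value, 0 passed in either direction and the median log2 difference was -0.030. Map3k7, the TAK1 kinase that acts above JNK, had 2344 ± 358 bp in MUT and 1573 ± 143 bp in WT (SD, n = 4 each; log2 difference 0.48; limma, adjusted p = 0.0587), and Map3k1 4723 ± 335 bp in MUT and 5106 ± 236 bp in WT (adjusted p = 0.275). Of 24 other basic leucine zipper genes, 0 passed and the median was 0.0084. Bach2, a repressor that competes with AP-1 for its sites in lymphocytes, had 6627, 7431, 7198 and 6621 bp in MUT and 7643, 7639, 7567 and 7223 bp in WT (log2 difference -0.15; limma, adjusted p = 0.0549), and Atf7 2120 ± 119 bp in MUT and 1693 ± 219 bp in WT (adjusted p = 0.242). Of 17 activators and DNA-binding partners, 0 passed and the median was 0.021. Nfatc2, a partner of AP-1 on cytokine promoters, had 5563 ± 428 bp in MUT and 4864 ± 225 bp in WT (adjusted p = 0.145). Irf4, the partner of BATF, had 2044, 2211, 2005 and 1462 bp in MUT and 925, 1546, 1443 and 915 bp in WT (log2 difference 0.58; limma, adjusted p = 0.226). Of 15 genes listed with EGR and NR4A as immediate early genes, 0 passed and the median was -0.016. Nr4a2, a nuclear receptor of that response, had 2140 ± 383 bp in MUT and 2781 ± 201 bp in WT (adjusted p = 0.190), and Ier3 491 ± 202 bp in MUT and 908 ± 237 bp in WT (adjusted p = 0.273). At an unadjusted p under 0.05 there were 4, 3, 5 and 2 genes in these lists, in the order given (of 26, 24, 17 and 15), beside 11.2% of all genes.

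Over the 8 libraries, the genes whose scaled length was most like the summed length of the 10 AP-1 genes were LOC115488350 (Pearson r = 0.982), Rpp14 (0.974) and Zdhhc5 (0.974), searched among 14247 genes. The points share their libraries, and the likeness is a description.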

How the data were processed

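ATAC-seq libraries of sorted splenic NK cells were analysed from 8 deposited peak lists, 1 per mouse and not pooled (4 MUT, 4 WT). The submitters' processing notes name mm10 (GRCm38) as build, and list DiffBind 3.0.12, DESeq2, Bowtie2 2.3.4.1 and Trimmomatic without a role. How peaks were called and filtered, and whether reads were shifted for the transposase, is not stated in the sources used here. Each deposited score is the authors' value per peak and served only to rank and filter peaks within its list.

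Peaks were linked to RefSeq protein-coding genes (GRCm38.p6) by midpoint, and peaks overlapping by at least 1 bp were merged. A region's percentile is that of its highest-scoring peak. Lengths were scaled to the median total of the libraries and tested with limma 3.58.1 (trend) on log2(bp + 200), for 14257 genes and 50044 regions with a peak in at least 2 libraries, with Benjamini-Hochberg adjustment at 0.05. Log2 differences are on the log2(bp + 200) scale and understate changes of short regions, and where libraries lack a peak their size depends on the 200 bp added. Printed bp are unscaled, so a small difference can differ in sign. The members, gene lists and tests were chosen with earlier results of these data known. All 10 members were named. A region was given in full if it was the best-ranked gene end, the lowest p, the best-ranked region beyond gene ends or in 1 genotype only, and the 2 lowest p were taken per gene list. Further regions were chosen for naming later, from their values. Linking and merging were tried first on a small made-up genome with known answers. The limma fit was tried on simulated lengths after the real fits. Software was R 4.3.3, Python 3.11.15 and scipy 1.17.1.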

Additional observations from a re-analysis of the deposited data

Results flagged for a closer look

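Of 40 groups of 4 libraries checked with Dixon's criterion, 4 held a library that stood apart from the other 3. Chance flags about 1 in 20 groups of continuous values, a rate that does not apply to 2 of the 4, in which the other 3 libraries had no peak. The Fosb length in MUT had a high library, replicate 28 with 4572 bp. The Fosb region at 9.0 kb had a low WT library, replicate 7 with 522 bp. In the Fosl2 region at -2.7 kb, WT replicate 7 was the 1 WT library with a peak, at 217 bp. In the Jund region at 3.0 kb, MUT replicate 29 was the 1 MUT library with a peak, at 205 bp. No cause of these values was tested.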

How the results depend on the processing

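Of 169 alternative values for the 10 genes, 145 kept their direction and side of the threshold, and of 170 for the lowest-p regions, 166 did. Directions turned where only the upper 50% of each list was used (log2 difference of Fos -0.16, Fosl1 -0.72, Jun -0.30, Batf 0.056, Batf3 -0.051, Atf3 -0.0044), with equal numbers of peaks from each list (Fos -0.015, Fosl2 -0.10, Jun -0.10, Batf 0.052, and Junb -0.59 with an adjusted p of 0.0299), with links up to 10 kb (Jun -0.10, Batf 0.014) and without scaling (Batf 0.033). Leaving out 1 library gave -0.016 to 0.038 for Fos, -0.050 to 0.050 for Fosl1 and -0.040 to 0.025 for Batf. With equal numbers of peaks, 1 member (Junb) and 1 member region passed, and that region, at the 3′ end of Junb, became WT-only (1 region), because its MUT percentiles (3.25 to 6.29) fell within the share of each MUT list that was dropped and its WT percentiles (11.1 to 16.3) did not. Genes past the threshold numbered 41 with links up to 10 kb and 22 to 79 with 1 library left out. Regions past it numbered 297 in the upper 50% and 451 to 772 with 1 library left out. Of the member regions, 0 to 2 passed and 0 to 2 were MUT-only with 1 library left out, the 2 without MUT replicate 26 or, for those that passed, WT replicate 7. The cause was not tested elsewhere. No paired analysis was possible because the replicate numbers of the genotypes differ (26 to 29 and 4 to 7).

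Depth is unknown, scores have no stated meaning, and called length measures the extent of peaks and not their height, so a change in height alone would be missed. A link by distance is no sign that a region acts on that gene. Any other difference between the MUT and WT mice or their handling cannot be told apart from the genotype.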
